A study of Mus musculus with 41 samples.

Results

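The comparison set 12 mice of medium cognition against 14 mice whose cognitive rank was inconsistent, in hippocampal gene expression. These 26 arrays, of 41 in the series, were chosen by their group label and not by any measured value. All mice were inbred C57BL/6J males with no treatment and no engineered allele in either group. Their testing began at 10 weeks of age. Learning and memory were scored in 5 cognitive tests, which ran from a Barnes maze at 10 to 11 weeks to passive avoidance at 37 to 38 weeks. The tests between them were an 8-arm radial maze, a T-maze and fear conditioning. From 11 parameters, 39 mice with complete data were ranked by 2 systems. A mouse placed as medium by both systems entered the medium group, and a mouse on whose class the systems did not agree entered the inconsistent group. RNA was taken from the hippocampus 1 month after the tests, and each mouse gave 1 biotin-labelled Affymetrix array. The other arrays came from 8 mice of low, 5 of high and 2 of incomplete rank, and the low and high means are given below only where they help to place a gene. Because the labels do not give the rank of each inconsistent mouse in each system, that group may hold mice of any class. Genetically alike males of a single strain and RNA of whole hippocampus limit both groups as a model of differences in learning.

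The hippocampus holds the circuits for spatial and contextual memory. Granule cells of the dentate gyrus pass input to pyramidal neurons of the CA fields, and GABAergic interneurons shape the firing of both. Firing switches on immediate early genes such as Fos, Arc and Egr1, whose products are transcription factors and synaptic proteins, and blocking several of them is known to impair lasting memory. Many of these genes carry a cAMP response element in their promoter, the site bound by the transcription factor CREB. The comparison asks whether mice with a settled middle rank differ in hippocampal expression from mice without a settled rank.

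Levels are given on a scale of log2(intensity + 16), after quantile normalization of the 41 arrays, and a difference is the medium mean minus the inconsistent mean. The added constant makes the difference of a dim gene smaller than its true log2 change. Markers of hippocampal cells were bright in both groups, with the exception of a single array. Over all probe sets, the median correlation between 2 arrays was 0.986 within the medium group, 0.986 within the inconsistent group and 0.986 between the groups, so arrays of a group were no more alike than arrays of different groups. Of the 26 arrays, 9 had their nearest array in their own group. No 2 arrays held identical values. The array of inconsistent mouse 2 carries a description that also places that mouse as medium. Its correlation was 0.992 with the medium mean and 0.993 with the inconsistent mean, and its nearest array was that of medium mouse 1. Arrays also fell into 3 sets by the signal of 45 spike-in control probe sets, and the grouping was made with the values in view. Set A held 2 medium and 3 inconsistent arrays, set B 5 and 2, and set C 5 and 9.

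The array labelled medium 9 went against its tissue label. C1ql2, a secreted synaptic protein of dentate granule cells, had a level of 5.81 there and of 8.72 to 9.36 on the other 25 arrays. Dsp, the desmosome protein that marks dentate granule cells, had a level of 4.57 against 8.36 to 9.13. Prox1, the transcription factor that sets granule cell identity, had a level of 5.59 against 7.04 to 7.74. The CA field marker Fibcd1 had a level of 5.72 against 7.70 to 8.48. Of the tested markers, 9 of 14 dentate granule genes and 13 of 17 CA pyramidal genes were lower on this array than on every other array of both groups. In the opposite direction, 10 of 13 neocortical layer genes and 6 of 9 striatal and dopamine genes were higher there than on every other array. Lamp5, of upper cortical layers, had a level of 11.2 against at most 9.39. Penk, the enkephalin precursor of striatal neurons, had a level of 10.3 against at most 8.27. This array was the highest or the lowest of the 26 for 36.3% of the tested probe sets, and its nearest correlation was 0.965. Values without it stand beside many of the gene and list values, but not beside all that it moved.

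**Figure D1:**
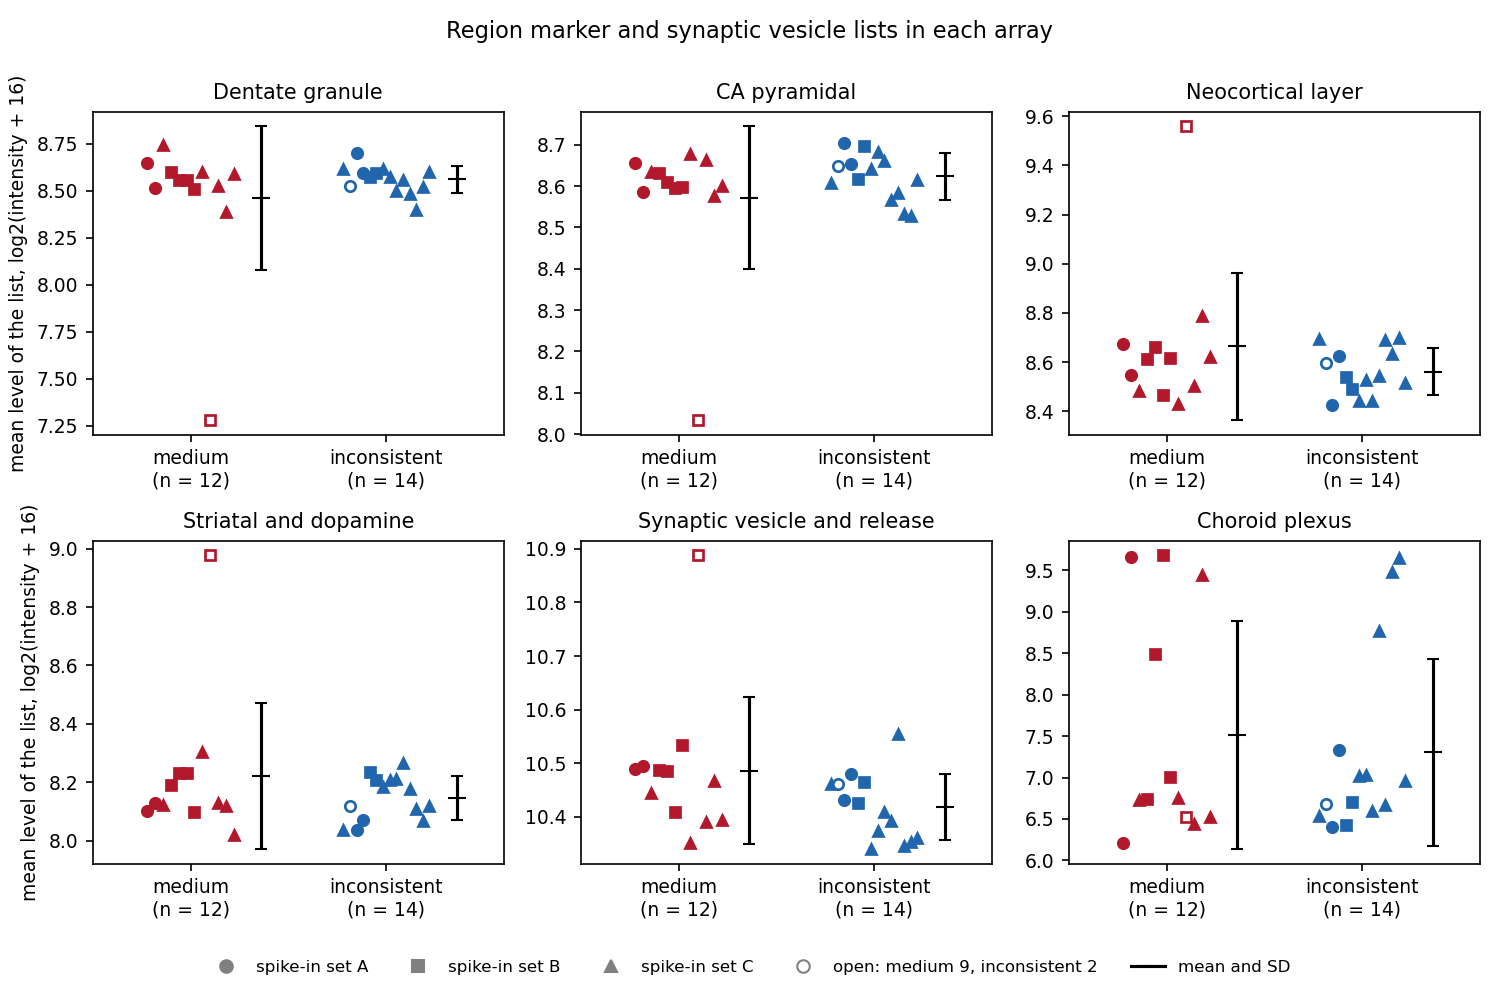
Mean log2 level of 6 marker lists on each of the 26 arrays, with medium and inconsistent mice in separate columns, symbols by spike-in set (circles A, squares B, triangles C) and open symbols for medium 9 and inconsistent 2. The open medium symbol lies at 7.28 for dentate granule markers, below 8.39 to 8.74 on the other arrays, and choroid plexus markers spread over a range of 6.21 to 9.68 in the medium group.

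No gene passed the test between medium and inconsistent mice. Of 22519 probe sets tested, 0 had a Benjamini-Hochberg adjusted p under 0.05 in limma, a share of 0%, and the smallest adjusted p was 0.956. The unadjusted p was under 0.05 for 995 probe sets, or 4.42%. Of these, 464 (2.06%) were higher in medium mice and 531 (2.36%) were lower. An exact rank-sum test also called 0 probe sets, with 920 at an unadjusted p under 0.05. The share at an unadjusted p under 0.05 was 3.61% without medium 9, 4.12% without inconsistent 2 and 3.45% without both, again with 0 adjusted calls each time. With the spike-in set as a block it was 0 adjusted and 722 unadjusted calls. Centring each array on its median in place of quantile normalization turned the split of the unadjusted calls to 2156 higher against 127 lower, and no normalization to 2649 against 1. The median difference over all probe sets was 0.06 and 0.19 under those scalings and 0.00 under the one used.

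The data bound the size of most differences. The median standard error was 0.063 and the median absolute difference 0.044. For 79.6% of probe sets the 95% interval of the difference lay within 0.25 on either side of 0, a change of 1.19-fold, and for 98.8% it lay within 0.5, or 1.41-fold. Only the Xkr4 probe set 1435850_at, of a scramblase family gene, lay beyond 0.5, at -0.53. It is named here after its value was seen. Of all tested probe sets 0.706% differed by more than 0.25. The smallest unadjusted p of the comparison was 0.000228, while a single probe set needs 2.22e-06 to pass after adjustment.

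**Figure D2:**
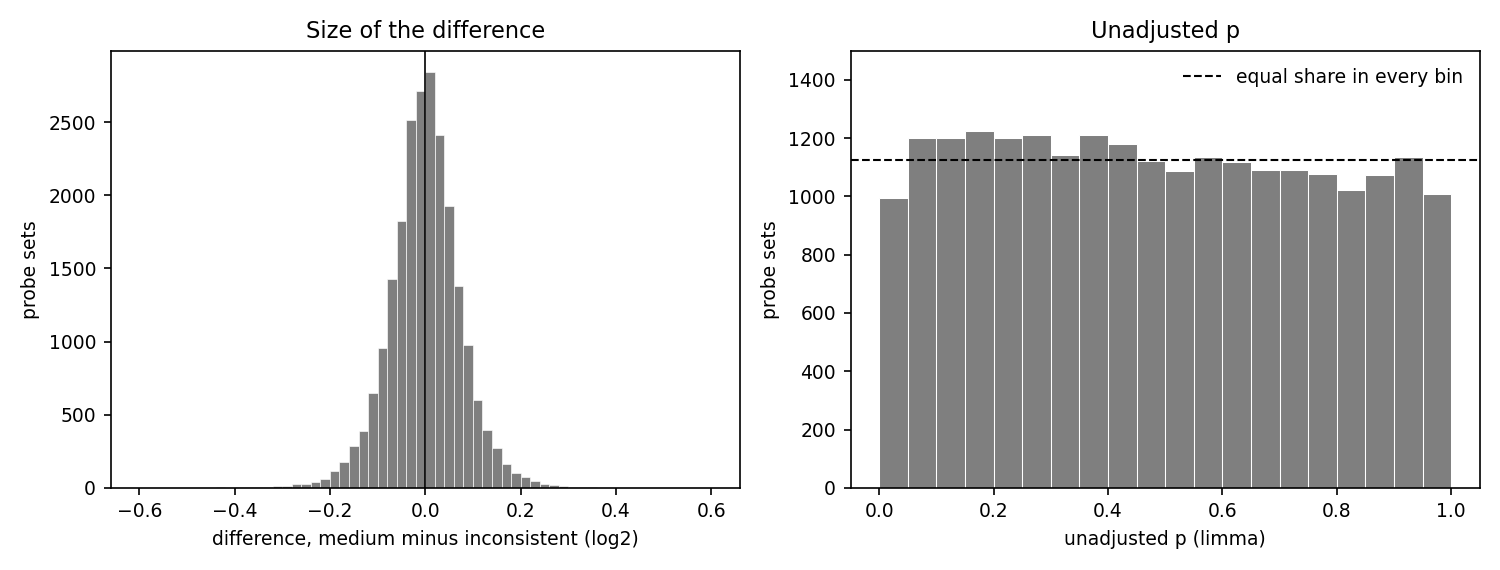
Left, the number of tested probe sets by difference in log2 level, medium minus inconsistent, with a median of 0.00 and a range of -0.53 to 0.49. Right, the number by unadjusted limma p with all 26 arrays, where 995 probe sets lie under 0.05. The dashed line marks an equal share in every bin.

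The 12 genes with the smallest p among those higher in medium mice are described here with their values, and none passed the test (adjusted p = 0.956 for each, limma). Slc25a30, a carrier of the mitochondrial inner membrane, had a lowest, median and highest level of 7.27, 7.46 and 7.65 in medium mice and of 7.09, 7.29 and 7.44 in inconsistent mice. Of the medium arrays, 7 lay above every inconsistent array, and the difference was 0.19 ± 0.046 (SE, p = 0.000309). The means of 7.43 in low and 7.46 in high mice were near the medium mean, and 2 other probe sets of the gene differed by 0.05 each. Epb41l1, which ties neuronal membrane proteins to the actin cytoskeleton, ran through 7.67, 7.95 and 8.05 in medium and 7.29, 7.69 and 7.97 in inconsistent mice. The ranges overlapped, with 3 medium arrays above all inconsistent ones, and the difference was 0.23 ± 0.059 (p = 0.000475). Its low and high means were 7.71 and 7.42, and the gene's other probe sets differed by 0.07 and 0.05. Ube2d3, a ubiquitin-conjugating enzyme, had levels of 8.97, 9.16 and 9.25 against 8.78, 9.04 and 9.14. Here 8 of 12 medium arrays lay above the inconsistent range, with a difference of 0.16 ± 0.042 (p = 0.000879). The 6 other Ube2d3 probe sets lay between -0.07 and 0.02.

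The other genes of the 12 had varied roles, and several were again read at a probe set that others of the gene did not follow. Sp4, a zinc-finger transcription factor of neurons, had levels of 6.83, 7.15 and 7.40 in medium and 6.45, 6.83 and 7.14 in inconsistent mice. The medium median lay at the top of the inconsistent range, and the difference of 0.29 ± 0.083 (p = 0.00144) was the largest of these 12. Sox5, a transcription factor of neural development, had levels of 5.94, 6.16 and 6.47 against 5.81, 5.95 and 6.16. G3bp1, which assembles stress granules, had levels of 6.92, 7.06 and 7.34 against 6.77, 6.93 and 7.07. Both sets of ranges overlapped, and the differences were 0.20 for Sox5 and 0.16 for G3bp1. Brighter probe sets of Sox5 lay between -0.01 and 0.12 and that of G3bp1 at 0.04. The nucleolar RNA helicase Ddx21 differed by 0.18 at probe set 1448270_at and by -0.18 (p = 0.0075) at 1448271_a_at, so its probe sets disagreed in direction. Mettl9, a methyltransferase, was bright in every array, with 9.62, 9.93 and 10.24 against 9.48, 9.69 and 9.85 and 8 medium arrays above the inconsistent range. Its difference was 0.20 ± 0.055 (p = 0.00119). The Golgi phosphatase gene Bpnt2 had levels of 9.26, 9.45 and 9.74 against 9.11, 9.31 and 9.54, a difference of 0.17 ± 0.050, and its other probe sets lay at 0.12 and 0.09. The remaining members were the oxidoreductase gene Wwox at 0.23, the mitochondrial folate enzyme gene Mthfd2l at 0.20 and 2610005L07Rik at 0.16. Other probe sets lay at 0.10 for Wwox, at 0.09 and -0.05 for Mthfd2l and between -0.07 and 0.09 for 2610005L07Rik.

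Among the 12 genes with the smallest p that were lower in medium mice were a nutrient sensor, a clock gene and the BDNF receptor. Slc38a9, the lysosomal transporter that senses arginine for the mTOR pathway, had a lowest, median and highest level of 5.74, 5.98 and 6.29 in medium and 6.04, 6.32 and 6.64 in inconsistent mice. The medium median lay under the whole inconsistent range, 7 medium arrays did so, and the difference was -0.32 ± 0.076 (p = 0.000228). The low mean of 5.98 and the high mean of 6.12 were nearer the medium mean. The other Slc38a9 probe sets lay between -0.13 and -0.03. Nudt17, of the Nudix hydrolase family, had levels of 5.56, 6.16 and 6.61 against 6.38, 6.61 and 6.80. Again 7 medium arrays lay under all inconsistent ones, with a difference of -0.41 ± 0.098 (p = 0.000231). Eola1 was brighter, with 7.21, 7.50 and 7.59 against 7.42, 7.64 and 7.74, and differed by -0.17 ± 0.042 (p = 0.000308). Dhx57, a helicase family gene, had levels of 7.17, 7.34 and 7.57 against 7.37, 7.48 and 7.73. It had 8 medium arrays under the inconsistent range and a difference of -0.16 ± 0.048 (p = 0.0022). Gpr19, an orphan G protein-coupled receptor of brain, had levels of 7.88, 8.15 and 8.31 against 8.15, 8.25 and 8.50. Its difference was -0.16 ± 0.047.

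For several of the lower genes, too, the probe set named was a dim one, and brighter probe sets of the gene did not follow it. Ntrk2 codes for TrkB, the BDNF receptor. Its probe set 1446712_at had levels of 5.34, 5.65 and 6.00 in medium and 5.44, 6.07 and 6.61 in inconsistent mice. The difference was -0.36 ± 0.099 (p = 0.00102, limma). The medium mean of 5.66 lay under 5.74, the mean level over the 41 arrays that a probe set needed to be tested. The brightest Ntrk2 probe set, 1458622_at, was higher in medium mice by 0.13 (p = 0.031), with levels of 10.29, 10.52 and 10.94 against 10.20, 10.35 and 10.66. Nrip1, a nuclear receptor corepressor, differed by -0.30 at 1454295_at and by -0.03 to 0.06 at its other probe sets. At 1454295_at its medium mean of 5.59 also lay under 5.74, and its inconsistent mean was 5.88. Per2, a repressor of the circadian clock, had levels of 5.63, 5.91 and 5.99 against 5.83, 6.12 and 6.28 and differed by -0.22 ± 0.055, while its other probe set lay at -0.05. Gpd1, the cytosolic glycerol-3-phosphate dehydrogenase, differed by -0.37 and at other probe sets by -0.09 and -0.04. Neurl1a, a neuronal ubiquitin ligase, differed by -0.27 and at its brightest probe set by 0.05. Letm2 differed by -0.20 and Nme6 by -0.27. Of the 24 leading genes, 15 were represented by a probe set that was not the brightest of its gene, and 10 had a mean level under 6.5. Their median level was 6.85, against 7.64 over all tested probe sets.

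**Figure D3:**
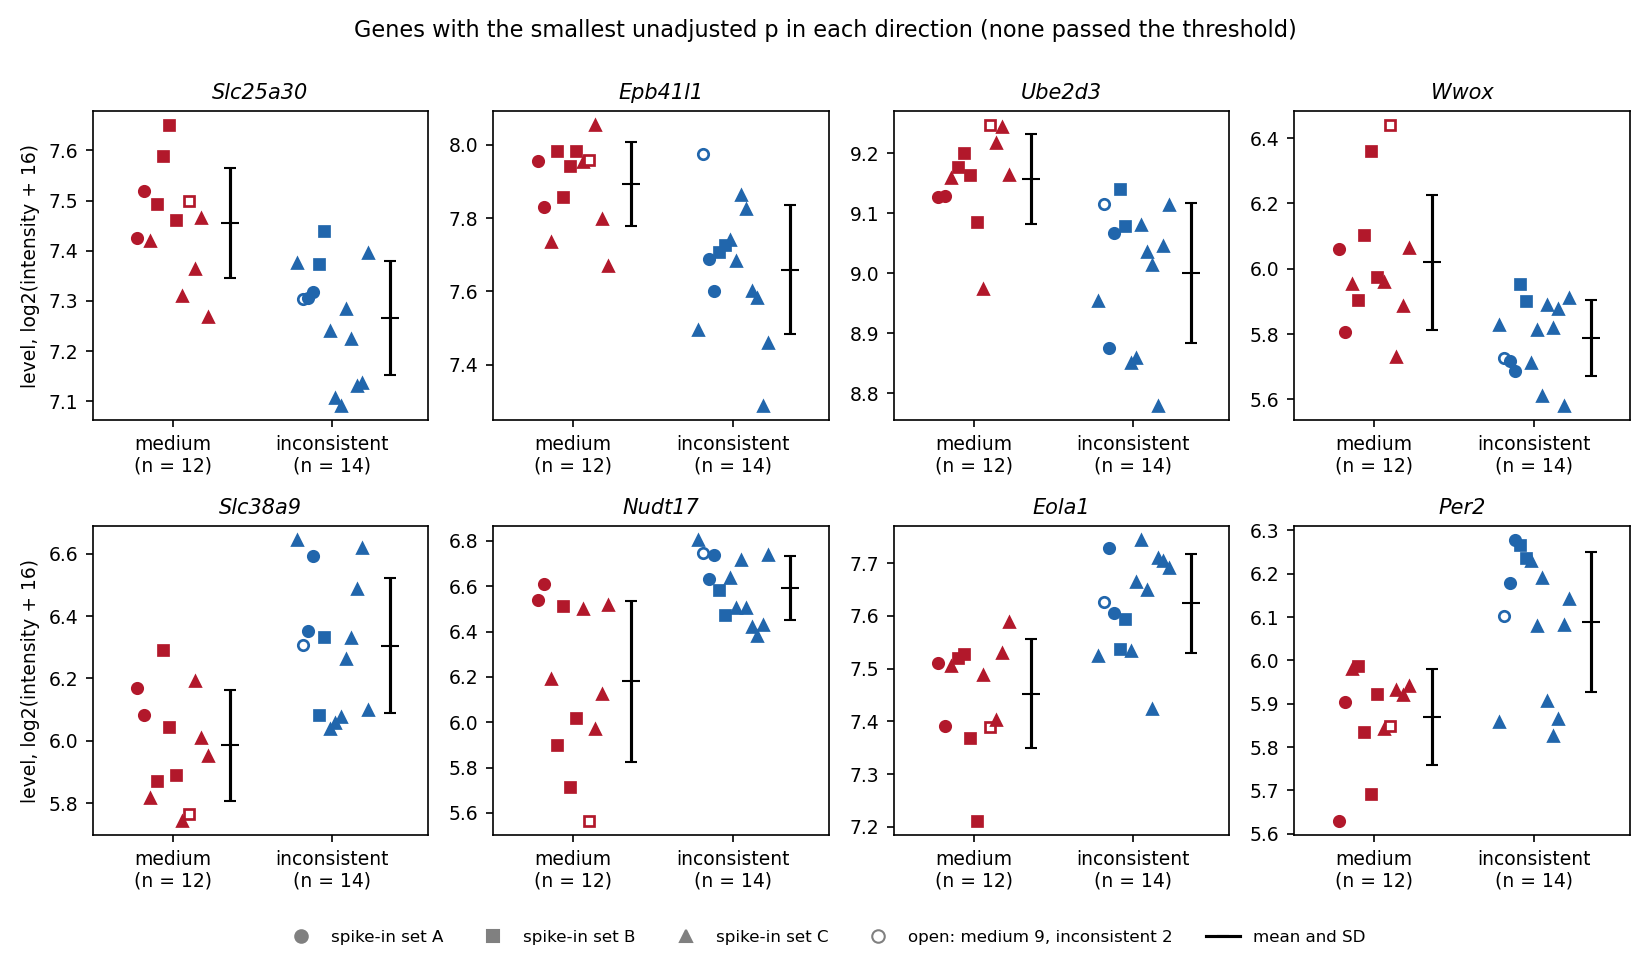
Log2 level of 8 leading genes on each array, with medium and inconsistent mice side by side and bars for mean ± SD. Symbols give the spike-in set (circles A, squares B, triangles C), and open symbols mark medium 9 and inconsistent 2. The groups overlap for every gene, with Slc38a9 and Nudt17 each having 7 of 12 medium arrays under the inconsistent range.

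The leading differences did not rest on the doubted arrays. Without medium 9 and inconsistent 2, Epb41l1 differed by 0.25 (p = 0.000165), Slc25a30 by 0.19, Slc38a9 by -0.30, Nudt17 by -0.34 and Dhx57 by -0.19, and none passed the adjusted test. All 24 kept their sign in each of the 3 spike-in sets, against 26% of the tested probe sets. The sets hold the same arrays that ranked the genes, so this is a description and not a further test. Within sets the size varied, from -0.13 in set A to -0.59 in set B for Nudt17 and from 0.25 in set C to 0.38 in set B for Sp4. Set against the other groups, the high mean lay nearer the inconsistent than the medium mean for 14 of the 24 genes and the low mean for 9.

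Immediate early genes were mostly lower in medium mice, though none passed the test. At the brightest tested probe set of each gene, 24 of the 30 tested members were lower and 6 higher, with a median difference of -0.13. Over all 11218 genes, 53.6% were higher and the median difference was 0.01. Of the 30, 4 were lower and 1 higher at an unadjusted p under 0.05, against 2.01% and 2.04% of all genes, or 4.06% in either direction. This list had been examined in these data before, so its direction is not independent evidence. Within the groups its members moved together, with a median correlation of 0.635 between a member and the mean of the others. Counts of members are thus not counts of independent observations. Genes of several other lists, such as choroid plexus (0.971) and neocortical layer (0.848), also moved together. RNA of whole tissue cannot tell fewer cells of a type from less RNA per cell. Promoters of 25 of the 30 genes were found in RefSeq on assembly GRCm38.p6, and Arc and Egr1 were among those without one. The element TGACGTCA, which reads the same on both strands, lay in the 250 bases before the start of 4 of 25 genes (16%), against 478 of 27025 genes (1.77%). Its shorter core TGACG, sought on both strands and contained in the full element, lay in 19 of 25 (76%) against 5347 (19.8%). A gene counted if any of its promoters held the letters. The list had 37 promoters for its 25 genes, against 32851 for 27025, so the shares are not fully alike. The 4 promoters with the full element are shown because they let the sequence be set beside the levels, with that element in capitals. The Btg2 sequence is chr1:134079156-134079405 on the minus strand, with the element starting 166 bases before the start site. The Dusp1 sequence is chr17:26508473-26508722 on the minus strand, with the element 143 bases before it. For Plk2 it is chr13:110394794-110395043 on the plus strand, at 62 bases, and for Ppp1r15a chr7:45526269-45526518 on the minus strand, at 12 bases.
Btg2: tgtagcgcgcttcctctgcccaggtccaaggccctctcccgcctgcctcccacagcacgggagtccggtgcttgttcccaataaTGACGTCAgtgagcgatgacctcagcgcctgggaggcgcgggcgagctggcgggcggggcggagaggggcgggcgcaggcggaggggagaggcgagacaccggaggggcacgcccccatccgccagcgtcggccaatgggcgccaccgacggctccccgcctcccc
Dusp1: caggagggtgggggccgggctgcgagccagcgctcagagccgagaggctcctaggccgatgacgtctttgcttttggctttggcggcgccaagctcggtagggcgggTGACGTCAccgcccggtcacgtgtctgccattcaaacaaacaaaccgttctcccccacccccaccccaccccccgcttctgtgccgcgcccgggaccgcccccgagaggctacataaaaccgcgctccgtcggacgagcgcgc
Plk2: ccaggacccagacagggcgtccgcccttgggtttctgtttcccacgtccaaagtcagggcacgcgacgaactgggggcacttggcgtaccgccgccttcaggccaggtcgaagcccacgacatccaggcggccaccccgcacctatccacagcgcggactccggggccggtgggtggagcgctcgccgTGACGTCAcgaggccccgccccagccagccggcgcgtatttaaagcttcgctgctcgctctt
Ppp1r15a: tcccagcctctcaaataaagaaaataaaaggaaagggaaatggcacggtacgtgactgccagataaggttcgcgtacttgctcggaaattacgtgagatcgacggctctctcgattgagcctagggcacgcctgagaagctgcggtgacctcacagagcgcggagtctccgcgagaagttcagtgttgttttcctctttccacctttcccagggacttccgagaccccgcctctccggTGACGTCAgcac

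Among the 4 genes with the full element the differences ranged from -0.38 to 0.00. Btg2, an antiproliferative gene induced by firing, had a lowest, median and highest level of 6.90, 7.22 and 7.90 in medium mice and 7.08, 7.68 and 8.07 in inconsistent mice. Of the medium arrays, 4 lay under the inconsistent range, and the difference was -0.38 ± 0.12 (p = 0.00373, adjusted p = 0.956, limma). Dusp1, a phosphatase that turns off MAP kinases, had levels of 8.22, 8.91 and 9.78 against 8.64, 9.35 and 10.0 and differed by -0.30 ± 0.20. Plk2, a kinase of synaptic homeostasis, had levels of 10.26, 10.44 and 10.62 against 10.35, 10.48 and 10.62 and differed by -0.03 ± 0.042. Ppp1r15a, which reverses the block of translation under stress, had levels of 6.59, 6.82 and 7.34 against 6.55, 6.90 and 7.34 and a difference of 0.00. The ranges overlapped for all 4, and Plk2 and Ppp1r15a had nearly the same median in both groups.

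The transcription factors and effectors of the list spread widely from mouse to mouse. Fos had levels of 7.46, 8.55 and 9.97 in medium and 7.95, 9.58 and 10.32 in inconsistent mice. Its medians lay apart while the ranges overlapped over most of their length, and the difference was -0.48 ± 0.33 (p = 0.153). Arc, a capsid-like regulator of glutamate receptor traffic, had levels of 7.37, 8.48 and 9.53 against 7.80, 8.91 and 9.71. Its difference was -0.43 ± 0.26 (p = 0.107). Egr2 had levels of 4.78, 5.37 and 6.96 against 5.04, 6.25 and 7.31, a difference of -0.44 ± 0.30. The nuclear receptor Nr4a3 had levels of 8.41, 9.75 and 10.12 against 9.56, 10.05 and 10.30. Only 1 medium array, medium 9, lay under the inconsistent range, and the difference of -0.30 ± 0.13 (p = 0.0252) was -0.19 without it. Dusp6, a phosphatase of ERK kinases, had levels of 8.69, 9.08 and 9.32 against 8.91, 9.30 and 9.60 and differed by -0.18 ± 0.077 (p = 0.0248). Bdnf, the neurotrophin, had levels of 8.67, 8.87 and 9.23 against 8.77, 9.09 and 9.28 and differed by -0.14 ± 0.065 (p = 0.0469). Without medium 9, its lowest medium array, it differed by -0.11 (p = 0.0923, limma). Its low and high means were 9.10 and 9.28. Nptx2, a pentraxin that gathers AMPA receptors, was the member higher in medium mice at an unadjusted p under 0.05, with 6.06, 6.55 and 7.94 against 5.92, 6.30 and 6.77. Its difference of 0.33 ± 0.14 was 0.21 without medium 9. A dimmer probe set of Ier5, 1460009_at, differed by 0.24 ± 0.086 (p = 0.00952), against -0.02 at its brightest. Without medium 9 these differences were 0.17 and -0.06. Egr1 differed by -0.10 ± 0.20, Nr4a1 by -0.30, Junb by -0.24 and Npas4 by -0.28, while Egr3, Fosb and Homer1 lay within 0.01 of 0.

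Averaged over the list, the level on an array was 8.32 ± 0.23 (SD, n = 12) in medium and 8.46 ± 0.26 (SD, n = 14) in inconsistent mice. The medium arrays ran from 7.98 to 8.64 and the inconsistent arrays from 8.08 to 8.74, so the groups overlapped over most of their range. The low and high means were 8.45 and 8.47. Of the 4 groups, medium mice had the lowest mean for 18 of 30 members (60%), against 22.3% of all genes. Without medium 9 the list had 26 members lower and a median of -0.15. The set means were 8.64 against 8.70 in set A, 8.23 against 8.43 in set B and 8.27 against 8.39 in set C, and the median member differed by -0.07, -0.17 and -0.12. The direction depends on the scaling. With median-centred arrays 19 members were lower with a median of -0.06, and without normalization 12 were lower with a median of 0.06. Relative to the median of all probe sets it was -0.13 under all 3 scalings.

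**Figure D4:**
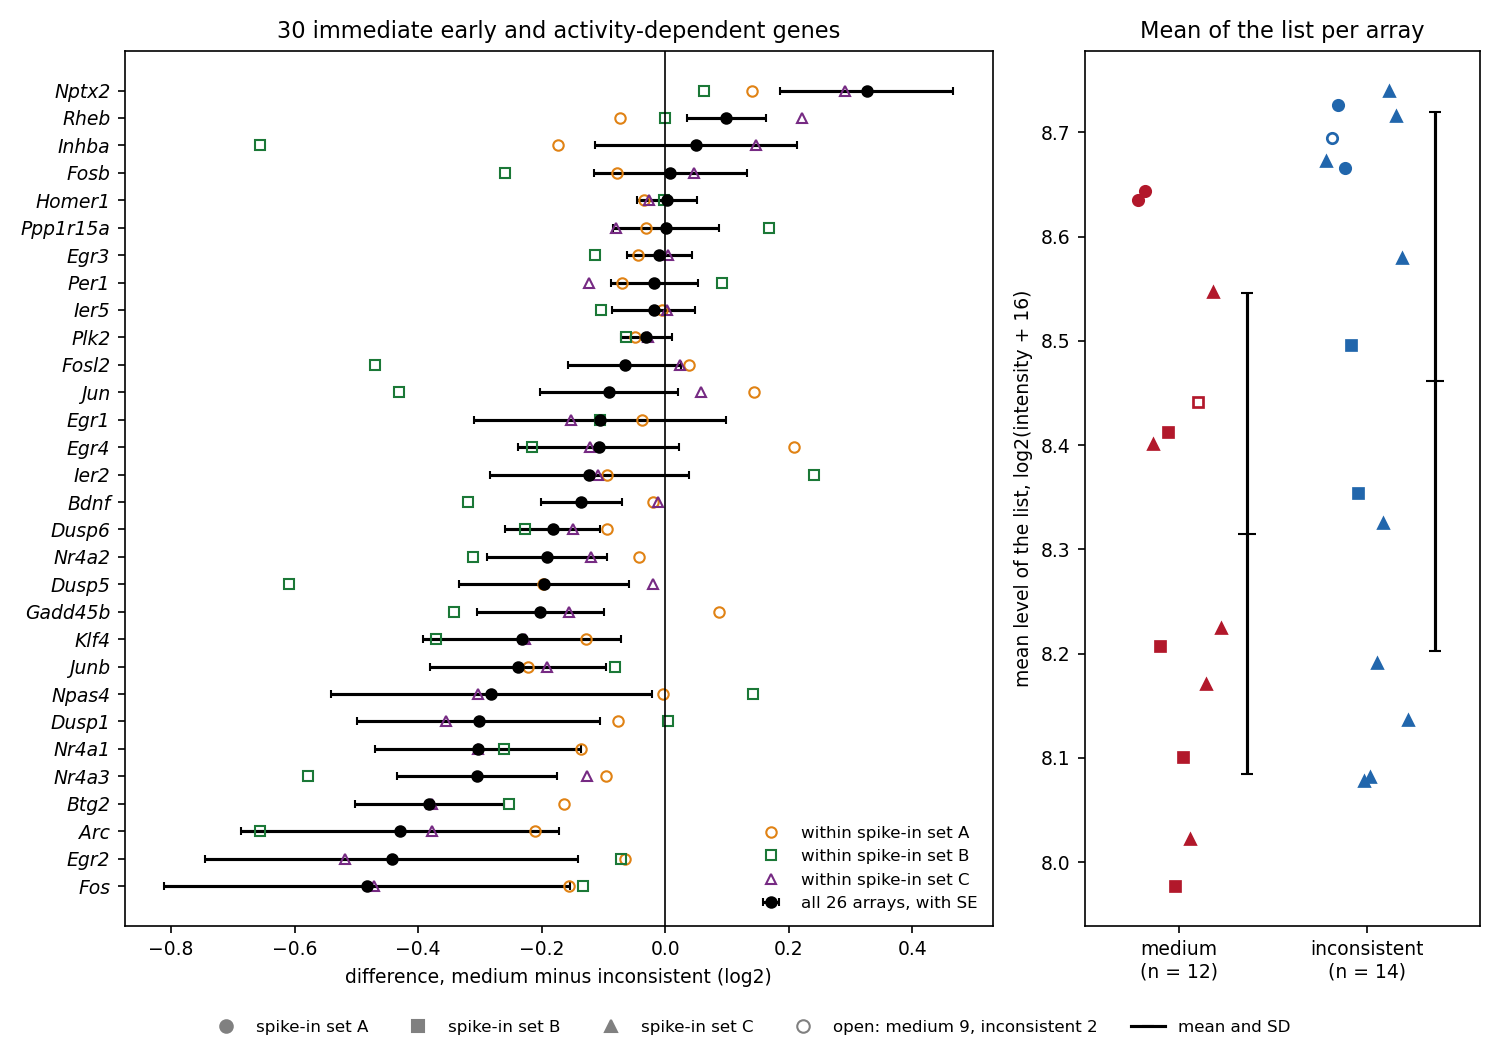
Left, the difference in log2 level, medium minus inconsistent, with its SE for each of 30 immediate early genes, and small symbols for the difference within each spike-in set. Right, the list mean of each array by group, where medium arrays run from 7.98 to 8.64 and inconsistent arrays from 8.08 to 8.74.

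Genes that stood out between high mice and medium or low mice were also read here, and none passed the test. The comparison of high with medium mice shares the 12 medium arrays, so the low and high means stand beside these values without a test. Bloc1s2, of a complex that moves lysosomes, had levels of 8.88, 8.97 and 9.10 in medium and 8.85, 9.03 and 9.17 in inconsistent mice. Its difference was -0.04 ± 0.038 (95% interval -0.11 to 0.04), with a low mean of 8.94 and a high mean of 9.29. No array of either group reached the high mean. Elp4, of the complex that modifies transfer RNA, had levels of 6.56, 6.67 and 6.94 against 6.55, 6.72 and 7.16, beside means of 6.74 in low and 7.06 in high mice. Inip, of a DNA repair complex, differed by -0.03, 0.03 and -0.01 at its 3 tested probe sets. P4ha2, a collagen prolyl hydroxylase, had levels of 5.80, 6.08 and 6.39 against 5.83, 6.31 and 6.63, a difference of -0.18 ± 0.086 (p = 0.0453, adjusted p = 0.956, limma). Without medium 9, its lowest medium array, P4ha2 differed by -0.16 (p = 0.0831, limma). Its low and high means were 6.14 and 6.55. Npy1r, a neuropeptide Y receptor, differed by -0.06 ± 0.077 and had means of 7.75 in low and 7.27 in high mice. Rbm14, an RNA-binding coactivator, differed by -0.09 to 0.05 over 4 probe sets. Crocc, of the ciliary rootlet, had levels of 6.10, 6.44 and 6.73 against 5.69, 6.31 and 6.56, a difference of 0.20 ± 0.095 (p = 0.0431), beside a high mean of 5.96. Without medium 9, its highest medium array, Crocc differed by 0.17 (p = 0.0806, limma). Ccni, of the cyclin family, differed by 0.26 ± 0.087 (p = 0.00521) at a dim probe set and by 0.04 to 0.08 at the others. At the dim probe set the difference was 0.19 without medium 9.

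Markers of regions outside the hippocampus were higher in medium mice, and this moved with the array labelled medium 9. Of 9 striatal and dopamine genes, 8 were higher with a median difference of 0.09, and of 13 neocortical layer genes, 10 were higher with a median of 0.11. Without medium 9 the counts were 4 of 9 and 8 of 13 and the medians -0.00 and 0.02. Cux2, of upper cortical layers, had levels of 6.88, 7.31 and 8.87 in medium and 6.70, 7.07 and 7.49 in inconsistent mice, with the maximum on medium 9. Its difference was 0.28 with and 0.15 without that array. Ppp1r1b, the dopamine-regulated phosphatase inhibitor of striatal neurons, had levels of 7.07, 7.51 and 8.97 against 6.71, 7.38 and 7.90 and differed by 0.21 ± 0.15, and by 0.09 without medium 9, which held the highest value. In the dentate granule list 11 of 14 genes were lower with a median of -0.10, and without medium 9, 7 of 14 were lower with a median of 0.00. Prox1 differed by -0.16 ± 0.14 with that array and by -0.02 without it. Its other probe sets differed by 0.17 and -0.11 over all 26 arrays, so they disagreed in direction. C1ql3, a synaptic protein of granule cells, differed by -0.14 ± 0.057 (p = 0.023) at a probe set where medium 9 was lowest, by -0.10 (p = 0.0514) there without that array, and by -0.01 at its brightest probe set. Pdzd2, the member with an unadjusted p under 0.05 at its brightest probe set, was higher in medium mice, with levels of 7.33, 7.74 and 8.32 against 7.10, 7.57 and 7.97. It differed by 0.21 ± 0.098 (p = 0.0376), and by 0.17 (p = 0.0839, limma) without medium 9, its highest array. Of 17 CA pyramidal genes 11 were lower, with medians of -0.05 with and -0.01 without medium 9. GABAergic interneuron genes had 11 of 17 higher, with medians of 0.04 and -0.00. Gad2, an enzyme of GABA synthesis, differed by 0.10 ± 0.048 (p = 0.0394), and by 0.08 (p = 0.0861) without medium 9, its highest array. No member of these lists passed the test.

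**Figure D5:**
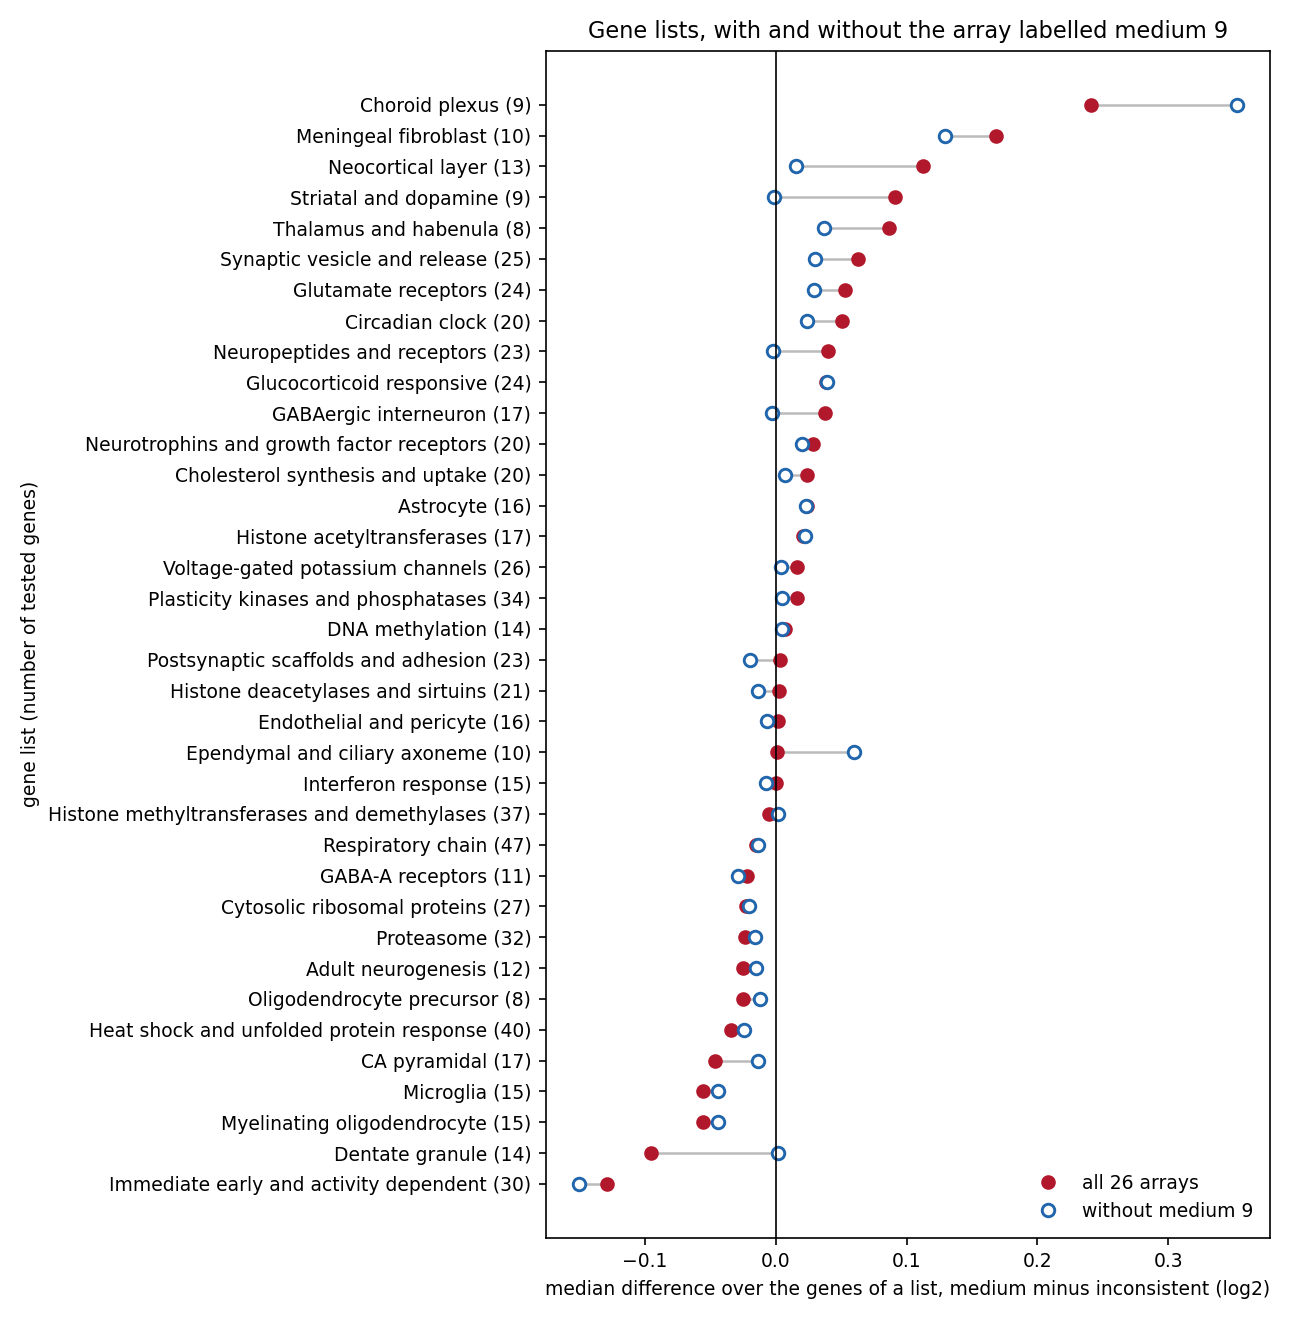
Median difference in log2 level, medium minus inconsistent, of 36 gene lists, with all 26 arrays (filled) and without medium 9 (open). The neocortical median moves from 0.11 to 0.02 and the dentate granule median from -0.10 to 0.00, while the immediate early median lies at -0.13 and -0.15.

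Choroid plexus genes, of the epithelium that makes cerebrospinal fluid, varied more from mouse to mouse than between the groups. The list mean was 7.52 ± 1.38 (SD, n = 12) in medium and 7.30 ± 1.12 (SD, n = 14) in inconsistent mice. Of 9 tested genes 8 were higher in medium mice, with a median difference of 0.24, and 0 had an unadjusted p under 0.05. Ttr, the transthyretin made by this epithelium, had levels of 8.09, 10.85 and 13.40 in medium and 9.23, 11.40 and 13.32 in inconsistent mice and differed by -0.14 ± 0.57, and by -0.01 without medium 9. Slc13a4, a sulfate transporter, differed by 0.38 ± 0.39 and Clic6, a chloride channel protein, by 0.34 ± 0.60 at its brightest probe set. At the Clic6 probe set of smallest p the difference was 0.26. A list mean of at least 8 was seen on 4 medium and 3 inconsistent arrays. The median difference was -0.12 without those 7 arrays and, with single arrays left out, ran from 0.055 without medium 6 to 0.40 without inconsistent 13, and within the sets it was 1.22, 0.91 and -0.57. Meningeal fibroblast genes were higher in 8 of 10, with a median of 0.17. That median was 0.048 without the same 7 arrays and 0.13 without medium 9. Within sets A, B and C it was 0.08, 0.16 and 0.04. Fmod, a collagen-binding proteoglycan, differed by 0.33 ± 0.20, or 0.25 without medium 9. Lum differed by -0.17 ± 0.11, or -0.11 without that array.

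Lists of oligodendrocytes and microglia leaned to lower levels in medium mice by small amounts. Of 15 genes of myelinating oligodendrocytes 14 were lower, with a median of -0.06. Without medium 9 there were 13 lower, at a median of -0.04, and without medium 3 the median was -0.03. The median was 0.08 in set A, -0.05 in set B and -0.12 in set C, so the sets disagreed in direction. Mbp, the major myelin basic protein, had levels of 11.47, 12.08 and 12.35 in medium and 12.03, 12.19 and 12.32 in inconsistent mice at probe set 1451961_a_at. There it differed by -0.14 ± 0.061 (p = 0.0276), and without medium 9, the lowest medium array, by -0.09. Its 7 other probe sets lay between -0.04 and 0.04. Ugt8a, which makes the myelin lipid galactosylceramide, differed by -0.19 ± 0.063 (p = 0.00501), with levels of 7.09, 7.53 and 7.69 against 7.49, 7.70 and 7.88, and by -0.09 at its brightest probe set. Of 15 microglial genes 13 were lower with a median of -0.06, which was -0.02 with the spike-in set as a block. C1qb, of the complement cascade, differed by -0.09 ± 0.052, and the homeostatic markers P2ry12 and Tmem119 by -0.06 each. Astrocyte genes were higher in 12 of 16 with a median of 0.02. Slc1a2, the main glutamate transporter of astrocytes, differed by 0.20 ± 0.064 (p = 0.00339) at 1439940_at and by 0.07 at its brightest probe set. Gfap, of the astrocyte skeleton, differed by 0.03 ± 0.12, and by 0.13 without medium 9. Oligodendrocyte precursor and endothelial genes had medians of -0.02 and 0.00. Over all probe sets the median difference was 0.063 with median-centred arrays and 0.19 without normalization. The glial list medians were smaller in size, so their direction may depend on the scaling. No glial gene passed the adjusted test.

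Chaperones and the large housekeeping complexes were lower in medium mice for most members, again by small amounts. Of 40 heat shock and unfolded protein genes 30 were lower with a median of -0.03, which was -0.05, -0.19 and -0.00 within sets A, B and C and -0.0090 without inconsistent 5. Hspe1, a mitochondrial chaperonin, had levels of 10.25, 10.44 and 10.55 in medium and 10.37, 10.51 and 10.72 in inconsistent mice and differed by -0.11 ± 0.040 (p = 0.0119). Hspa1b, an inducible chaperone with a near-identical copy, Hspa1a, whose signal may mix with it, had levels of 8.68, 8.89 and 9.36 against 8.81, 9.13 and 9.97. It differed by -0.29 ± 0.11 (p = 0.0104), beside means of 8.90 in low and 9.46 in high mice. Dnajb1, a cochaperone, differed by -0.23 ± 0.083 (p = 0.0106). Lower in medium mice were 26 of 32 proteasome genes, 23 of 27 ribosomal protein genes and 37 of 47 respiratory chain genes, with medians of -0.02, -0.02 and -0.01. The proteasome median was 0.0026 within set C and -0.0086 with the spike-in set as a block. Over all probe sets the median difference was 0.063 with median-centred arrays and 0.19 without normalization. The medians of these 4 lists were smaller in size, so their direction may depend on the scaling. Psmd13, a lid subunit of the proteasome, differed by -0.18 ± 0.055 (p = 0.00348) at a dim probe set, with 7 medium arrays under the inconsistent range, and Psmc6, a base ATPase, by 0.21 ± 0.063 (p = 0.00291). At their brightest probe sets these genes differed by 0.03 and 0.02. Rps15 had levels of 11.66, 12.01 and 12.18 against 11.85, 12.13 and 12.24. All members of these 4 lists had an adjusted p of at least 0.956 in limma.

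Lists of the synaptic vesicle and of glutamate receptors leaned the other way. Of 25 synaptic vesicle and release genes 22 were higher in medium mice with a median of 0.06, and 18 without medium 9 with a median of 0.03. Within sets A, B and C it was 0.04, 0.11 and 0.01. Vamp1, a vesicle SNARE, had levels of 9.08, 9.26 and 9.67 in medium and 8.93, 9.13 and 9.43 in inconsistent mice and differed by 0.15 ± 0.065 (p = 0.0275), and by 0.12 (p = 0.0616) without medium 9. Snap25, a SNARE of the plasma membrane, differed by 0.06 (p = 0.0398) at its brightest probe set and by -0.32 ± 0.11 (p = 0.00681) at a dim one. Glutamate receptor genes were higher in 16 of 24 with a median of 0.05, and in 18 with a median of 0.03 without medium 9. Gria4, an AMPA receptor subunit, differed by 0.16 ± 0.077, by 0.09 without medium 9 and by 0.07 at its brightest probe set. GABA-A receptor and postsynaptic scaffold genes did not lean to higher levels, with 5 of 11 and 12 of 23 higher and medians of -0.02 and 0.00. Without medium 9, 2 of 11 and 8 of 23 were higher, with medians of -0.03 and -0.02. Of the GABA-A list, Gabra4 had levels of 8.34, 8.73 and 9.03 against 8.12, 8.62 and 8.92 and differed by 0.20 ± 0.083 (p = 0.0203), but by -0.05 at its brightest probe set. Plasticity kinases and phosphatases were higher in 24 of 34 with a median of 0.02, and in 20 with a median of 0.0046 without medium 9. Ppp1r1a, an inhibitor of protein phosphatase, differed by -0.17 ± 0.073 (p = 0.0293). Nrg3, a neuregulin growth factor, had levels of 7.71, 7.90 and 8.13 against 7.64, 7.75 and 7.99 and differed by 0.13 ± 0.045 (p = 0.00656). Neuropeptide and potassium channel genes had medians of 0.04 and 0.02, and of -0.00 and 0.0036 without medium 9.

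Enzymes that write and erase chromatin marks were close to 0 as lists. DNA methylation genes had a median of 0.01, histone acetyltransferases 0.02, histone deacetylases and sirtuins 0.00, and histone methyltransferases and demethylases -0.01. Gadd45b, linked to active demethylation and also an immediate early gene, differed by -0.17 ± 0.081 (p = 0.0406). Its levels were 6.59, 7.06 and 7.38 in medium and 6.82, 7.23 and 7.67 in inconsistent mice. Gadd45g differed by -0.14 ± 0.076. The methyltransferase genes Dnmt1 and Dnmt3a differed by 0.04 and -0.03 and the dioxygenase gene Tet1 by 0.07. Kdm6a, an X-linked demethylase of histone H3, had levels of 7.24, 7.43 and 7.73 against 7.12, 7.27 and 7.67 and differed by 0.15 ± 0.056 (p = 0.0131). Kdm5a differed by 0.16 ± 0.057 (p = 0.00934) at a dim probe set and by 0.04 at its brightest. Taf1, of the general transcription machinery, differed by 0.10 ± 0.045 (p = 0.0288), and the coactivators Ep300 and Crebbp by 0.06 and 0.04. None passed the adjusted test.

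Of 12 adult neurogenesis genes, 5 were higher and 7 lower. Neurod1, the transcription factor of new granule neurons, had levels of 8.14, 8.30 and 8.58 in medium and 8.34, 8.50 and 8.67 in inconsistent mice. The medium median lay under the whole inconsistent range, as did 8 of 12 medium arrays, and the difference was -0.17 ± 0.051 (p = 0.0024, adjusted p = 0.956, limma). Its low and high means were 8.52 and 8.71. Mcm2, a helicase subunit of dividing cells, had levels of 6.69, 7.07 and 7.46 against 6.22, 6.70 and 7.31 and differed by 0.36 ± 0.11 (p = 0.0037). Dcx, which marks immature neurons, differed by 0.05. Glucocorticoid-responsive genes were higher in 14 of 24 with a median of 0.04, but within sets the median was -0.05, -0.25 and 0.09. Without medium 3 the median was -0.0008. Klf9, a direct target of the glucocorticoid receptor, differed by -0.17 ± 0.087, and by -0.00 at its brightest probe set. Clock genes were higher in 15 of 20 with a median of 0.05. Without medium 9 there were 13 higher with a median of 0.02, and with the spike-in set as a block the median was 0.00. Rora, a nuclear receptor of the clock that is also a thalamic marker, differed by 0.26 ± 0.092 (p = 0.00844), and by 0.13 at its brightest probe set. Without medium 9, its highest medium array, these differences were 0.19 (p = 0.0141, limma) and 0.04. Interferon-response and cholesterol genes had medians of 0.00 and 0.02, and ependymal genes 0.00.

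The inconsistent group is defined by disagreement, so the spread between mice was compared as well. No probe set passed the test of spread: 0 of 22519 (0%) in limma on absolute deviations from the group median, with a smallest adjusted p of 0.655. At an unadjusted p under 0.05 there were 712 (3.16%), with 405 (1.8%) more variable in medium and 307 (1.36%) more variable in inconsistent mice. Medium mice had the larger SD for 58.2% of probe sets, with a median SD of 0.164 against 0.152. With medium 9 and inconsistent 2 left out the share at an unadjusted p under 0.05 was 2.72%. Without medium 9 alone it was 3.07%, and the balance turned to 236 (1.05%) against 456 (2.02%), and the median log2 ratio of SDs over genes moved from 0.09 to -0.06. Atrx, a chromatin remodeller, had an SD of 0.115 in medium and 0.333 in inconsistent mice, with levels of 7.47 to 7.91 against 7.22 to 8.24. Mknk1, a kinase of translation initiation, had an SD of 0.0623 against 0.211, and the DNA polymerase gene Polb 0.077 against 0.206. A230006K03Rik had 0.0689 against 0.301, the smallest p of the test (p = 7.4e-05). More variable in medium mice were Aff3, a nuclear protein of the transcription elongation family, with 0.272 against 0.117, and Nudt17 with 0.355 against 0.142. Hook1, a microtubule linker, had 0.131 against 0.052 and the deubiquitinase gene Usp48 0.138 against 0.0549.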

How the data were processed

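Hippocampal RNA was measured on 1 Affymetrix array per mouse, with groups taken from the labels. The authors' deposited values are intensities on a linear scale. Partek and RMA are named in the submitters' processing notes, with no version and no order of steps. RMA values are usually on a log2 scale, so the deposited intensities had been transformed in a way that is not stated. Whether the arrays were normalized against each other is not stated either: their medians ran from 29.6 to 53.4 in medium and from 25.8 to 55.2 in inconsistent mice. Of 45101 probe sets, 64 array controls were left out, the 41 arrays were quantile normalized, and log2(intensity + 16) was taken. The 22519 probe sets at or above the median mean level (at least 5.74) were tested over 26 arrays with limma 3.58.1 in R 4.3.3 (lmFit, eBayes, Benjamini-Hochberg threshold 0.05), which was tested on simulated data. Spread was tested as absolute deviations from group medians. GEO's platform annotation gave 1 symbol for 34945 probe sets, several for 932 and none for 9160. A list value uses the brightest tested probe set of a gene. Genes described singly use the one of smallest p, namely the 12 genes of smallest p in each direction, the 8 of smallest spread p in each direction, the 3 of each list and a fixed set of genes. Other list members are given at their brightest probe set. Members and lists were chosen with earlier results of these data known. Promoters are RefSeq's, on GRCm38.p6, and sequence was read only there. The number of arrays limits the precision. Other scalings, offsets and filters, a replicate or spike-in set block, array weights, rank tests and left-out arrays were tried as alternatives.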

Additional observations from a re-analysis of the deposited data

How the results depend on the processing

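No alternative changed a call. In all 48 alternatives of the comparison of means 0 probe sets passed, with a smallest adjusted p of 0.287 (limma, without inconsistent 5), and in all 38 of the comparison of spread 0 passed, with 0.261. The 995 unadjusted calls became 2091 with no filter, 504 over the brightest probe sets and 477 with a probe set per gene, as the number tested changed, 2283 with median-centred arrays, 2650 without normalization and 550 within set C, and ran from 813 to 1219 with single arrays left out. The 712 of spread became 1666 with no filter, 333 with a probe set per gene and 1210 with deviations from the group mean. Of 12 same-numbered pairs of a medium and an inconsistent array, 6 correlated above 0.1, and in 1 the medium array correlated best with its own number. Whether the replicate numbers pair the mice was not tested. The replicate block gave 0 calls and 1285 unadjusted. Of 1094 values of the 24 leading genes 3 reversed, all without normalization: Eola1 0.027, Gpr19 0.044 and Dhx57 0.033. Of 740 values of 16 other named genes 33 reversed, and 0 passed the threshold. Without normalization these were Mbp 0.016, Bdnf 0.078, Rbm14 0.11, Prox1 0.017, Bloc1s2 0.18, Inip 0.16, Npy1r 0.14, Elp4 0.14 and Ttr 0.038. With median-centred arrays they were Bloc1s2 0.053, Inip 0.039, Npy1r 0.015 and Elp4 0.018. Set A gave Prox1 0.0021, Bloc1s2 0.059, Npy1r 0.054 and Elp4 0.15. Set B gave Inip 0.0044, Npy1r 0.082, Gfap -0.26 and Ttr 1.57, and set C P4ha2 0.061 and Ppp1r1b -0.074. Without both doubted arrays Prox1 was 0.0044, and without the arrays of high choroid plexus level Inip was 0.028. With the replicate block Gfap was -0.023 and Ttr 0.028, and with array weights Ttr was 0.099. With single arrays left out, Elp4 ran from -0.048 to 0.0065, Gfap from -0.0027 to 0.13 and Ttr from -0.34 to 0.14. The causes were not tested. Of 1655 medians of 36 lists, 58 moved by more than 1 SD.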

Other observations

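The 2 mice with incomplete ranking belong to neither group. Their immediate early list means were 8.68 and 8.20, beside 7.98 to 8.64 in medium and 8.08 to 8.74 in inconsistent mice. Their choroid plexus means were 9.31 and 6.36, their neocortical means 8.53 and 8.72, and their dentate granule means 8.56 and 8.53.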
